A study of Mus musculus with 12 samples.

Results

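The megakaryocyte and platelet genes examined here are Pf4, Ppbp, Itga2b, Itgb3, Gp1ba, Gp1bb, Gp9, Gp5 and Vwf, 9 of the 56953 genes in the count table, each matched by its mouse symbol to 1 Ensembl identifier. They were measured in 12 bulk RNA libraries from bone marrow myeloid cells of female C57BL/6J mice aged 8 weeks, in 4 groups of 3 replicates. All mice carried Rank cre/+ and R26.eYFP fl/+, so a Cre recombinase expressed from the Rank locus turns on eYFP permanently in embryonic macrophages and their descendants. eYFP+ macrophages are the labelled, embryonic cells, and eYFP- macrophages are the unlabelled cells that the labels assign to adult hematopoietic stem cells (HSC). Ly6Chi and Ly6Clo monocytes, separated by the surface protein Ly6C, complete the design. No group was treated. Macrophages were enriched with F4/80 antibodies and sorted on CD206 and VCAM1, and the antibodies listed for the study include none against the platelet proteins encoded by the 9 genes. The sources used here do not state whether replicates are separate mice, so p-values measure the spread between these libraries, which may be technical.

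Megakaryocytes are large bone marrow cells that shed platelets. Pf4 and Ppbp encode chemokines stored in platelet alpha granules, Itga2b (CD41) and Itgb3 (CD61) encode the subunits of the fibrinogen receptor integrin alphaIIb-beta3, and Gp1ba, Gp1bb, Gp9 and Gp5 encode the chains of the GPIb-IX-V receptor, which binds von Willebrand factor, the product of Vwf. Several of these genes are not restricted to platelets: Itga2b is also expressed by early hematopoietic progenitors and by mast cells and basophils, Itgb3 pairs with the alphaV chain (Itgav) in macrophages and osteoclasts, and Vwf is a classic endothelial gene.

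Total counts per library were 26390927 to 48618187. The sorted populations carried their own markers: Vcam1 stood at 8960 to 14400 TPM (a level scaled for gene length and library) in macrophages against 14.4 to 90.2 TPM in monocytes, and Ly6c2 at 5810 to 6960 TPM in Ly6Chi against 32.4 to 77.5 TPM in Ly6Clo monocytes. Ly6Clo replicate 2 and eYFP+ replicate 1 stood apart. Relative to their groups, 1669 GC-rich genes (median GC content 59%) ran at a median log2 ratio of -1.36 in the former and -0.72 in the latter. Ly6Clo replicate 2 had a count for 16434 genes, and the other 11 libraries for 21330 to 27634 genes. Itga2b, Gp9, Gp5 and Gp1bb have transcripts of 58.2%, 58.3%, 59.3% and 62% GC, so values of these libraries are given separately wherever they bear on a result.

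The 9 genes were not expressed as a set. Pf4 was high in both macrophage groups and in Ly6Clo monocytes, Itga2b in eYFP- macrophages, Itgb3 in monocytes and Vwf in Ly6Clo monocytes, while Ppbp, Gp1ba and Gp1bb were at or below 61.1 normalized counts in every library (counts divided by the size factor of the library). In TPM, Pf4 alone made up 95.4% to 98.3% of the summed level of the 9 genes in eYFP+ macrophages, 78.5% to 84.6% in eYFP- macrophages and 77.4% to 96% in Ly6Clo monocytes, but 3.47% to 15.2% in Ly6Chi monocytes. Other platelet genes, chosen after their values were seen, also ranged widely. Gp6, the platelet collagen receptor, had 0 to 4 counts per library and Tubb1, the platelet beta-tubulin, 0 to 38, whereas Clec1b, the platelet podoplanin receptor, stood at 57.5 to 186.9 TPM in macrophages. In bulk RNA, a smaller number of cells of a type and less RNA per cell cannot be told apart.

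**Figure D1:**
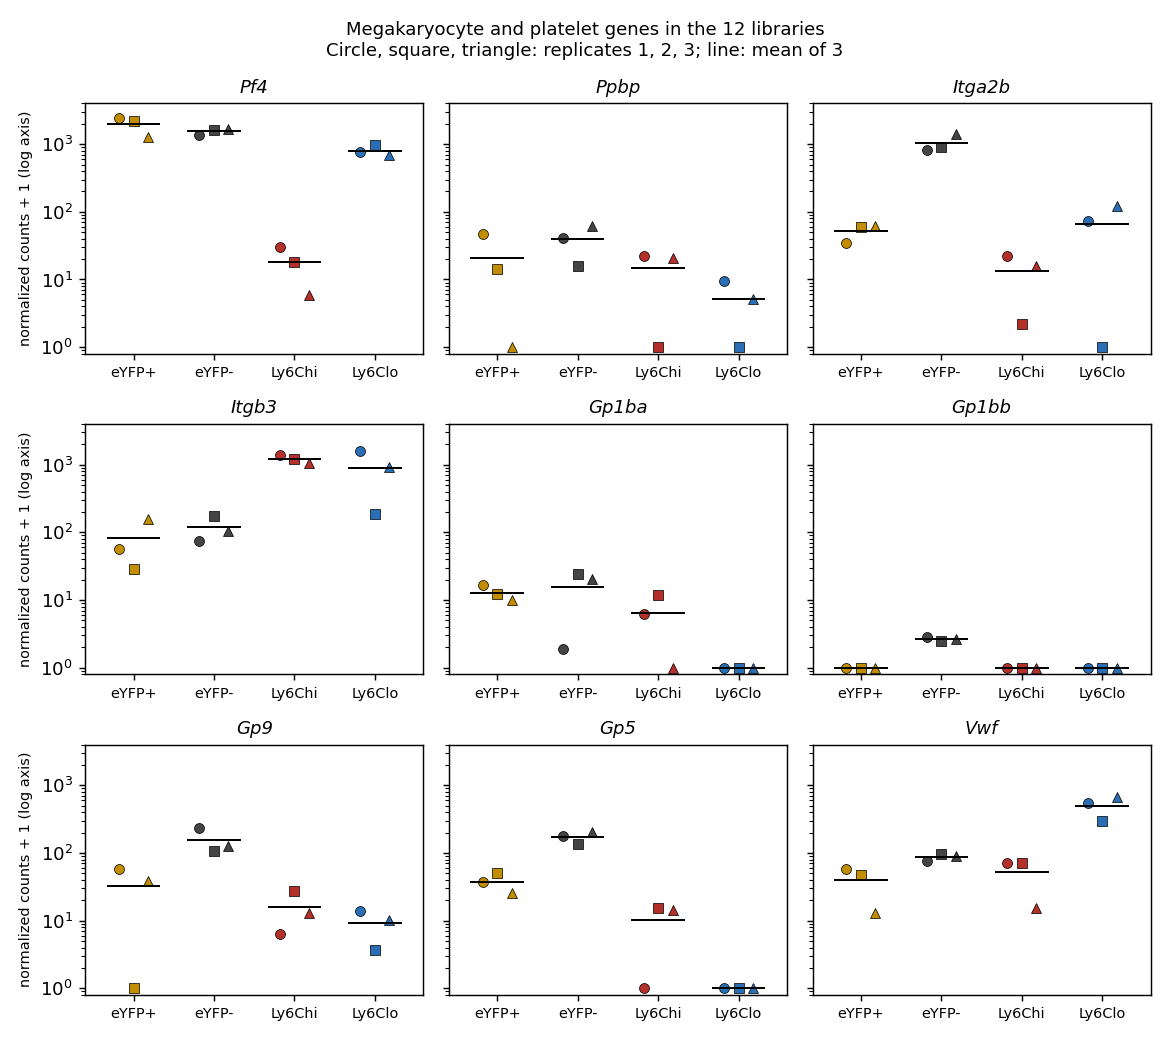
Normalized counts plus 1 (log axis) of the 9 genes in each of the 12 libraries, by group; each symbol is a library and the line is the mean of 3. Pf4 is at 682.6 or more in 9 libraries and at 29.7 or less in the 3 Ly6Chi libraries, whereas Itga2b reaches 807.8 or more in the 3 eYFP- libraries and 122.9 or less in the others.

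Pf4, platelet factor 4, had 2467, 2216 and 1264 normalized counts in eYFP+ macrophages and 1358, 1638 and 1671 in eYFP- macrophages. The macrophage groups overlapped, and the difference of 0.35 ± 0.43 (log2, SE) in eYFP+ minus eYFP- macrophages was not called (adjusted p = 1, DESeq2). Ly6Clo monocytes had 768.2, 960.6 and 682.6 normalized counts and Ly6Chi monocytes 29.7, 17 and 4.86. The monocyte groups were far apart: Pf4 was 46.3-fold lower in Ly6Chi than in Ly6Clo monocytes (log2 difference -5.53 ± 0.48, DESeq2 adjusted p = 1.45e-27, edgeR adjusted p = 0.000166). Ordered by mean, Pf4 was highest in eYFP+ macrophages (1980 ± 635, SD, n = 3), followed by eYFP- macrophages (1560 ± 172), Ly6Clo monocytes (804 ± 142) and Ly6Chi monocytes (17.2 ± 12.4). Neither the first and the next group nor eYFP- macrophages and Ly6Clo monocytes (DESeq2 adjusted p = 0.0878) differed by the test, although no Ly6Clo library reached the level of a macrophage library in normalized counts. After the GC correction Ly6Clo replicate 2 (1332) was above eYFP+ replicate 3 (1226) and eYFP- replicate 1 (1326). eYFP+ macrophages exceeded Ly6Clo monocytes by 1.30 ± 0.43 (log2, DESeq2 adjusted p = 0.0122), a call that was lost in 6 alternatives, among them leaving out eYFP+ replicate 1 (adjusted p = 0.0763), eYFP+ replicate 2 (0.0747) or Ly6Clo replicate 3 (0.068).

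Ppbp, the other alpha granule chemokine (pro-platelet basic protein), did not follow Pf4. It had 45, 14 and 0 counts in eYFP+ macrophages, 44, 20 and 73 in eYFP- macrophages, 20, 0 and 16 in Ly6Chi monocytes and 10, 0 and 4 in Ly6Clo monocytes. All groups overlapped except eYFP- macrophages and Ly6Clo monocytes, and no contrast was called. Per length, Pf4 was at 55.8 TPM or more in the 9 macrophage and Ly6Clo libraries and Ppbp at 2.94 TPM or less in every library.

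Itga2b was the gene of the 9 that was called different between the macrophages. Normalized counts were 34, 59.1 and 60 in eYFP+ macrophages and 807.8, 895.5 and 1393 in eYFP- macrophages, so the groups were far from overlapping. Itga2b was 20.2-fold lower in eYFP+ macrophages (log2 difference -4.34 ± 1, DESeq2 adjusted p = 0.0018). The quasi-likelihood test of edgeR gave a log2 difference of -4.35 without a call (edgeR adjusted p = 0.17), and over all alternatives the difference lay between -4.49 and -3.21. On simulated counts DESeq2 made more false calls than its threshold allows, so this call, which edgeR does not share, is less firm than those made by both. Ly6Chi monocytes had 21.2, 1.21 and 14.6 normalized counts and Ly6Clo monocytes 72.2, 0 and 122.9. In the order of means, eYFP- macrophages (1030 ± 316, SD, n = 3) exceeded the next group, Ly6Clo monocytes (65 ± 61.8, DESeq2 adjusted p = 0.000547), which did not differ by the test from eYFP+ macrophages (51 ± 14.8, adjusted p = 0.844), nor these from Ly6Chi monocytes (12.3 ± 10.2, adjusted p = 0.147).

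The monocyte comparison of Itga2b changed its call without Ly6Clo replicate 2, the library poor in GC-rich genes, which had 0 counts. Ly6Chi minus Ly6Clo was -2.40 ± 1.03 (log2, DESeq2 adjusted p = 0.138) with all libraries, and -2.96 with an adjusted p of 2.07e-05 without that library. After a correction for GC content, with that library still at 0, it was -2.45 (adjusted p = 0.0495).

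Itgb3, the beta3 chain, was high in monocytes and low in both macrophage groups. It had 1386, 1228 and 1075 normalized counts in Ly6Chi monocytes and 1599, 188.9 and 923.4 in Ly6Clo monocytes, against 55.6, 27.7 and 159.1 in eYFP+ and 73.9, 176.3 and 102.1 in eYFP- macrophages. Each monocyte library was above each macrophage library on this scale, with the low Ly6Clo value again in replicate 2; in TPM that library (1.5) was below eYFP- replicate 2 (1.76) and eYFP+ replicate 3 (1.51). Macrophages were 10.8-fold lower than monocytes (log2 difference -3.43 ± 0.50, DESeq2 adjusted p = 1.3e-10). Neither the macrophage groups (-0.54 ± 0.72, adjusted p = 1) nor the monocyte groups (0.44 ± 0.71, adjusted p = 0.787) were called different.

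The subunits of the platelet fibrinogen receptor were therefore high in different groups. In eYFP- macrophages Itga2b stood at 11.2, 15.1 and 21.1 TPM and Itgb3 at 0.611, 1.76 and 0.919 TPM. In Ly6Chi monocytes Itgb3 stood at 11.5, 10.3 and 8.95 TPM and Itga2b at 0.297, 0.0171 and 0.204 TPM. Itgav, the alternative alpha chain partner of Itgb3, was at 7.93 to 48.3 TPM over the 12 libraries and exceeded Itga2b in all libraries but eYFP- replicates 1 and 3.

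**Figure D2:**
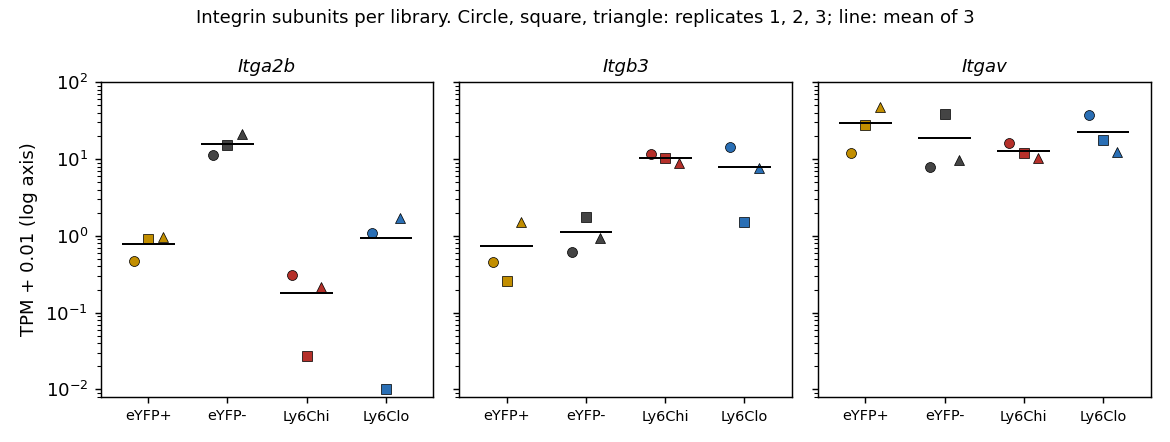
TPM plus 0.01 (log axis) of Itga2b, Itgb3 and Itgav in each library; each symbol is a library and the line is the mean of 3. Itga2b is highest in eYFP- macrophages (11.2 to 21.1 TPM) where Itgb3 is at 0.611 to 1.76 TPM, and Itgav lies between 7.93 and 48.3 TPM in all groups.

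The genes of the GPIb-IX-V chains had their highest means in eYFP- macrophages, at low levels. Gp5, which encodes the GPV chain, had 36, 49.6 and 24.4 normalized counts in eYFP+ macrophages, 175.3, 136.1 and 200 in eYFP- macrophages, 0, 14.6 and 13.4 in Ly6Chi monocytes and 0 in all Ly6Clo libraries. The macrophage groups did not overlap and differed by -2.22 ± 0.75 (log2, eYFP+ minus eYFP-), without a call (DESeq2 adjusted p = 0.108, edgeR adjusted p = 0.607). The call changed with libraries outside the comparison. The DESeq2 adjusted p was 0.00126 without Ly6Chi replicate 1, 0.0233 without Ly6Clo replicate 2 and 0.000241 in a fit of the 6 macrophage libraries. Limma on log2(TPM + 1) also gave a call (adjusted p = 0.00813), and 21 of 25 alternatives gave none. Against Ly6Clo monocytes, with the floor set at 3 counts over the group, Gp5 was at least 165-fold higher in eYFP- macrophages, at least 35.6-fold higher in eYFP+ macrophages and at least 9.03-fold higher in Ly6Chi monocytes. The last difference, resting on 0, 12 and 11 counts in Ly6Chi monocytes, was called by DESeq2 (adjusted p = 0.00234) and not by edgeR (adjusted p = 0.0605).

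Gp9, the GPIX chain, had 55, 0 and 51 counts in eYFP+ macrophages and 251, 142 and 149 in eYFP- macrophages, against 2 to 22 in the 6 monocyte libraries. The macrophage groups did not overlap, with a log2 difference of -2.28 ± 1.02 that was not called (DESeq2 adjusted p = 0.406, edgeR adjusted p = 0.75). eYFP- macrophages exceeded Ly6Clo monocytes by 4.20 ± 1.05 (log2, DESeq2 adjusted p = 0.000557) and Ly6Chi monocytes by 3.38 ± 1.04 (adjusted p = 0.0061, edgeR adjusted p = 0.067).

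Gp1ba, the ligand-binding GPIb-alpha chain, had 15, 12 and 12 counts in eYFP+ macrophages, 1, 31 and 23 in eYFP- macrophages, 5, 9 and 0 in Ly6Chi monocytes and 0 in the Ly6Clo libraries. The macrophage groups overlapped, and Gp1ba was at least 11.6-fold (eYFP+) and at least 14-fold (eYFP-) higher than in Ly6Clo monocytes (DESeq2 adjusted p = 0.00502 and 0.00325). Both calls were lost with the edgeR replicate block (adjusted p = 0.0721 and 0.0732) and with limma on log2(TPM + 1) (0.161 and 0.0861) or log2(TPM + 0.1) (0.0908 and 0.0941). Gp1bb, which encodes the GPIb-beta chain, had 2 counts in each eYFP- library and 0 elsewhere, too few for an adjusted p. In the GENCODE M21 annotation, 91.1% of the exonic bases of Gp1bb are shared with Sept5 on the same strand. If read pairs that fall in both genes were left out, Gp1bb lost counts, so its low counts are uncertain.

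Vwf, the ligand of the complex, was highest in Ly6Clo monocytes. It had 540, 292 and 664 normalized counts there, against 68.9, 70.4 and 14.6 in Ly6Chi monocytes, 56.6, 46.7 and 11.8 in eYFP+ macrophages and 74.9, 94.5 and 87.9 in eYFP- macrophages. Every Ly6Clo library was above all others. Vwf was 9.71-fold lower in Ly6Chi than in Ly6Clo monocytes (log2 difference -3.28 ± 0.63, DESeq2 adjusted p = 1.48e-05, edgeR adjusted p = 0.0209), and eYFP- macrophages stood below Ly6Clo monocytes (log2 difference -2.54 ± 0.63, adjusted p = 0.000459). The macrophage groups did not overlap but were not called different (-1.17 ± 0.64, adjusted p = 0.654), and after the GC correction they overlapped, with eYFP+ replicate 1 at 73 and eYFP- replicate 1 at 68.9. The summed level of 10 endothelial genes was 150 to 187 TPM in macrophages, 52.8 to 105 TPM in Ly6Clo and 7.23 to 10.3 TPM in Ly6Chi monocytes. Most of it was Stab2 (group means of 119 and 84.2 TPM in eYFP+ and eYFP- macrophages) and Pecam1, which leukocytes also express and which was highest in Ly6Clo monocytes (mean 70.3 TPM). Between the monocytes, Pecam1 and Stab2 were lower in Ly6Chi (4.97% of all genes) and Tie1 higher (3.66%) by DESeq2. The edgeR test called Pecam1 alone (2.51% of all its genes lower). Between the macrophages the median log2 difference of the 10 was -2.81, and 1 was called lower in eYFP+ (1.88% of all genes), Egfl7 (mean 0.769 against 10.5 TPM). Cldn5 (0.409 against 6.95 TPM), Plvap (1.54 against 12.8 TPM) and Emcn (0.259 against 1.92 TPM) were not called. Tie1 and Cldn5 were at 0 counts in all Ly6Clo libraries. In the gating described for the study, macrophages and CD11b+ monocytes lie within CD45+ cells, and endothelial cells lack CD45. The part of endothelial RNA in the Vwf values was not tested.

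Across the design, 1 of the 8 genes with an adjusted p was lower in eYFP+ than in eYFP- macrophages (Itga2b) and none was higher, where 1.88% of the 21567 genes tested were called lower and 0.153% higher. The edgeR test called 0 of 8 genes and 0.328% of all its genes lower. At an unadjusted p under 0.05 these were 2 of 8 and 5.74%. The median log2 difference of the 8 genes was -1.07, against 0.05 over all genes tested. The libraries of Itga2b, Gp9, Gp5 and Vwf did not overlap, all with eYFP+ below, which held for 8.5% of all tested genes. Between the monocytes, Pf4 and Vwf were lower in Ly6Chi (4.97% of all genes) and Gp5 was higher (3.66%), with a median of 0.63 against 0.02 over all genes. Between macrophages and monocytes 7 of the 8 genes were called. Pf4, Itga2b, Gp1ba, Gp9 and Gp5 were higher in macrophages, where 20.3% of the 22385 genes tested were higher, and Itgb3 and Vwf were lower, where 15% were. All 7 were also called by edgeR, where 19.8% of all its genes were higher and 15.8% lower. Pf4 and Gp5 (higher; 10.7% of all genes) and Itgb3 (lower; 6.94%) did so without overlap in normalized counts between the 6 macrophage and the 6 monocyte libraries. The median was 2.83, or 2.56 with Gp1ba and Gp5 set to their bounds, against 0.08 over all genes. For Itga2b and Gp9 this rested on eYFP- macrophages, as eYFP+ macrophages alone were not called different from either monocyte group (DESeq2). For Vwf and Gp1ba it rested on Ly6Clo monocytes, as neither macrophage group was called different from Ly6Chi monocytes (adjusted p = 0.73 and 0.444 for Vwf, 0.655 and 0.516 for Gp1ba, eYFP+ and eYFP-, DESeq2).

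**Figure D3:**
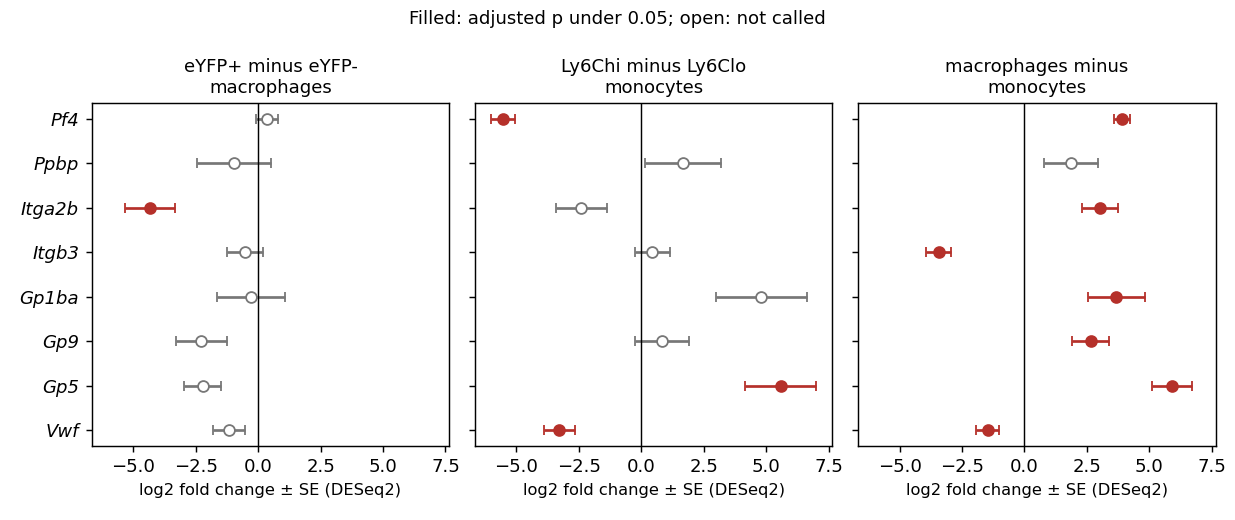
Log2 fold changes with their standard errors (DESeq2) of the 8 genes with an adjusted p in 3 contrasts; filled points have an adjusted p under 0.05. Itga2b is the only filled point among macrophages (-4.34), Pf4 and Vwf lie to the left and Gp5 to the right among monocytes; fitted values of Gp5 and Gp1ba against Ly6Clo monocytes, where both are at 0, are no bounds.

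Of 10 transcription factors of the megakaryocytic and erythroid lineages, 2 were lower in eYFP+ than in eYFP- macrophages by DESeq2 (1 by edgeR) and none higher, beside 1.88% (0.328% by edgeR) of all genes lower, with a median log2 difference of -2.40. Nfe2, which drives late megakaryocyte maturation, had 579, 458 and 497 counts in eYFP+ and 2871, 3143 and 3628 in eYFP- macrophages (log2 difference -2.51 ± 0.26, DESeq2 adjusted p = 4.3e-18). Zfpm1, the GATA cofactor FOG1, had 0, 23 and 14 against 138, 106 and 76 counts (-3.05 ± 0.90, adjusted p = 0.0358, edgeR adjusted p = 0.417). Gata1 (492, 206 and 517 counts against 3071, 1313 and 1891) and Gata2 (41, 110 and 118 against 758, 1041 and 1430) did not overlap but were not called (DESeq2 adjusted p = 0.191 and 0.474). Fli1 and Runx1, broad hematopoietic regulators, differed by 0.06 and 0.26 (both adjusted p = 1). None of the 10 was called between the monocytes by DESeq2 or edgeR. Over all genes, 3.66% were higher in Ly6Chi and 4.97% lower by DESeq2 (1.81% and 2.51% by edgeR). Between macrophages and monocytes, where 20.3% of all genes were higher and 15% lower, 5 were higher, Gata1 among them (4.49 ± 0.61, adjusted p = 3.7e-12), and 4 lower, among them Nfe2 (-3.18 ± 0.18, adjusted p = 6.66e-65) and Lyl1 (-3.48 ± 0.33, adjusted p = 3.52e-25).

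None of 13 other platelet receptors with an adjusted p was called between the macrophages by DESeq2 or edgeR (median -1.68), where 1.88% of all genes were lower and 0.153% higher by DESeq2 and 0.328% lower by edgeR. Against monocytes 6 receptors were higher in macrophages and 2 lower (20.3% and 15% of all genes). Clec1b was 6.11 ± 0.45 higher on the log2 scale (adjusted p = 1.19e-39), and P2ry12, the ADP receptor, 3.93 ± 0.40 (adjusted p = 7.93e-22), while the tetraspanin Cd9 was at -1.35 ± 0.24 (adjusted p = 1.46e-07). Between the monocytes DESeq2 called 4 receptors lower in Ly6Chi (4.97% of all genes) and 1 higher (3.66%), the ADP receptor P2ry1 (3.72 ± 1, adjusted p = 0.00451). The edgeR test called 2 lower, Cd9 and Cd226 (2.51% of all its genes). Cd9 was lower in Ly6Chi than in Ly6Clo monocytes (-3.21 ± 0.34, adjusted p = 6.56e-19), as were Cd226 (-3.24 ± 0.72, adjusted p = 0.000246) and Clec1b (-2.66 ± 0.66, adjusted p = 0.0018).

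Of 12 granule and secreted genes, 1 was lower in eYFP+ macrophages by DESeq2 (1.88% of all genes) and 0 by edgeR (0.328%), the protease inhibitor Serpine2 (-2.59 ± 0.60, DESeq2 adjusted p = 0.00203, edgeR adjusted p = 0.124). Macrophages exceeded monocytes in 4 of the 12 and were below in 3, beside 20.3% and 15% over all genes. F13a1, the coagulation factor XIII A chain, which monocytes also make, had 98100 ± 5450 normalized counts (SD, n = 3) in Ly6Chi and 2290 ± 711 in Ly6Clo monocytes (5.42 ± 0.54, adjusted p = 3.05e-21). Pdgfb was higher in Ly6Clo monocytes (Ly6Chi minus Ly6Clo -5.53 ± 0.73, adjusted p = 5.58e-12).

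Of 14 cytoskeletal and signalling genes, 4 were lower in eYFP+ macrophages by DESeq2 (1.88% of all genes) and 1 by edgeR (0.328%), led by the G-protein regulator Rgs18 (-3.74 ± 0.61, DESeq2 adjusted p = 5.33e-07), Gng11 (-2.11 ± 0.47, adjusted p = 0.00131) and the dense granule transporter Slc35d3, with 2, 0 and 0 counts in eYFP+ and 19, 86 and 88 in eYFP- macrophages (adjusted p = 0.00877). Between macrophages and monocytes 7 were higher and 2 lower (20.3% and 15% of all genes). The enzymes of thromboxane synthesis were highest in macrophages: Tbxas1 exceeded monocytes by 3.71 ± 0.18 (adjusted p = 3.05e-89) and Ptgs1 by 4.61 ± 0.25 (adjusted p = 2.86e-75).

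Among 7 integrin partners and ligands with an adjusted p, 1 was lower in eYFP+ macrophages (1.88% of all genes), Mfge8, a bridging ligand of alphaV integrins (-2.47 ± 0.51, DESeq2 adjusted p = 0.000292), a call that edgeR did not make (edgeR adjusted p = 0.0698). Of 8 such genes tested between macrophages and monocytes, 1 was higher by DESeq2, Itgb5, which also pairs with Itgav (2.05 ± 0.20, adjusted p = 3.75e-22). Itgb2, Fn1 and Mfge8 were lower (log2 differences of -1.04, -6.91 and -2.29), beside 20.3% and 15% of all genes. The edgeR test called 1 higher and 4 lower (19.8% and 15.8%). Itgam was not among the DESeq2 calls, with means of 8530 (Ly6Chi) and 3920 (Ly6Clo) normalized counts against 120 (eYFP+) and 82.6 (eYFP-).

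Between the macrophage groups, summed markers of several other cells were lower in eYFP+, as Itga2b was. The values that follow were chosen after they had been seen, and the part of these cells in the Itga2b result was not tested. Monocytes did not match Itga2b in every list: neutrophil sums were 15900 to 24100 TPM in Ly6Chi and 6760 to 16000 TPM in Ly6Clo. Retnlg, Mmp8 and Ear1 of these lists had higher mean normalized counts in eYFP+ than in eYFP- macrophages. The share called lower over all genes was 1.88% by DESeq2 and 0.328% by edgeR. Of 11 stem and progenitor genes 4 were lower in eYFP+ macrophages by DESeq2 and 1 by edgeR, with a summed level of 18.7 to 30 TPM in eYFP+ and 73 to 152 TPM in eYFP- macrophages; Cd34 had 9, 159 and 73 counts against 1287, 2648 and 2370 (DESeq2 adjusted p = 8.81e-09). Of 9 basophil, mast cell and eosinophil genes with an adjusted p, 2 were lower in eYFP+ macrophages by DESeq2 and 0 by edgeR, with sums of 10.7 to 18.2 TPM against 457 to 1810 TPM. The basophil protease gene Mcpt8 had 0, 3 and 3 counts in eYFP+ and 1676, 3007 and 3893 in eYFP- macrophages (DESeq2 adjusted p = 9.23e-06, edgeR adjusted p = 0.0677). Ly6Chi replicate 3 also held Mcpt8 (532 counts), whereas the lowest library of that group had 1.21 normalized counts. Of 11 erythroid genes 3 were lower in eYFP+ macrophages by DESeq2 and 0 by edgeR (sums of 9160 to 15000 against 23100 to 36800 TPM), and of 11 neutrophil genes 5 by DESeq2 and 1 by edgeR (at most 213 against 263 to 2710 TPM). The macrophage gate kept Gr1-low cells, and neutrophils carry Gr1 at a high level. How much neutrophil RNA passed this gate was not tested.

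**Figure D4:**
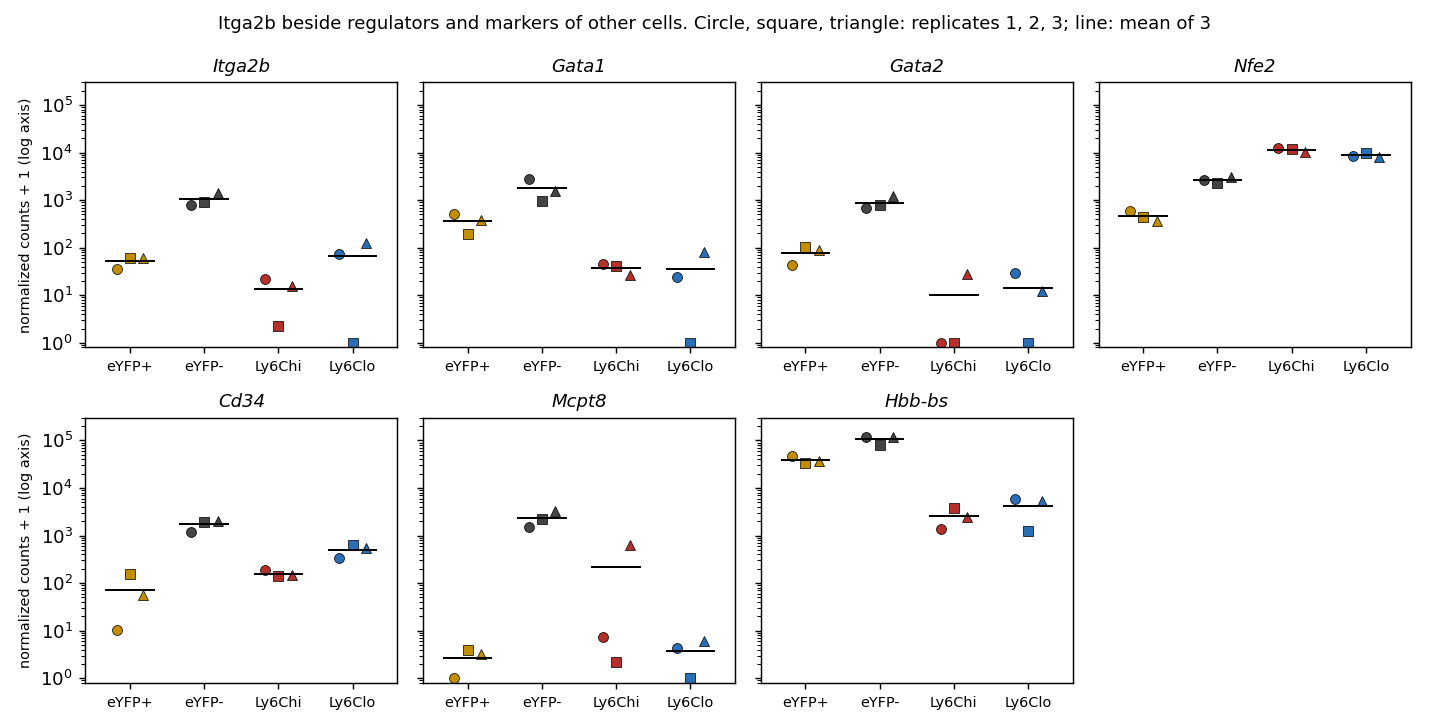
Normalized counts plus 1 (log axis) of Itga2b, the transcription factor genes Gata1, Gata2 and Nfe2, the progenitor gene Cd34, the basophil gene Mcpt8 and the erythroid gene Hbb-bs in each library; symbols are libraries and lines are means of 3. All 7 genes have higher values in each eYFP- than in each eYFP+ library, while the monocyte levels differ from gene to gene: Nfe2 is highest in monocytes and Hbb-bs lowest.

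The promoters of 4 of the genes are given to show what sequence lies before the start of the chemokine gene Pf4, shared by both macrophage groups, and of Itga2b, Gp9 and Gp5, whose values were lower in each eYFP+ library. Each is the 250 bases before the start of the gene from RefSeq (GRCm38.p6, another build than the GRCm39 used for the counts), written 5′ to 3′ on the strand of the gene. Capitals mark 2 short motifs on either strand, AGATAA (bound by GATA factors) and GGAAG (the core bound by ETS factors such as Fli1).
Pf4 (chr5:90772185-90772434, plus strand): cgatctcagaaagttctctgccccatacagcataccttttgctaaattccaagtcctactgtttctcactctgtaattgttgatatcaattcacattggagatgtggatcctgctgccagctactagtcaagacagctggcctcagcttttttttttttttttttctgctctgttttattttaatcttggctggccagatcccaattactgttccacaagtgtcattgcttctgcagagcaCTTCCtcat
Itga2b (chr11:102469884-102470133, minus strand): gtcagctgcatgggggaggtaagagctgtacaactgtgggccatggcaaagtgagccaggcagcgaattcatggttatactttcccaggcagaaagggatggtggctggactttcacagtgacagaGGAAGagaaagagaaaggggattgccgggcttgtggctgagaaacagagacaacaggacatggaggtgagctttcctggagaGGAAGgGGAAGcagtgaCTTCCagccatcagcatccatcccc
Gp9 (chr6:87777820-87778069, plus strand): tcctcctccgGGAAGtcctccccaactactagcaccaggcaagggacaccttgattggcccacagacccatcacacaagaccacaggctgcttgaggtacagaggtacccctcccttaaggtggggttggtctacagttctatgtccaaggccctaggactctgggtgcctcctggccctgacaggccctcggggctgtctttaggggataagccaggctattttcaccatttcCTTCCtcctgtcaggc
Gp5 (chr16:30310782-30311031, minus strand): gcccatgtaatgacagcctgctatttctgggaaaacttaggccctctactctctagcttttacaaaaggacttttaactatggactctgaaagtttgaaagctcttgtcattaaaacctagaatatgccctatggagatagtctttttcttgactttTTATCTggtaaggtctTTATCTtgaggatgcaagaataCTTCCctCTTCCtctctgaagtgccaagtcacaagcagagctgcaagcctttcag
Of the 7 genes in the promoter table (Itgb3 and Vwf were not among them), all 7 held GGAAG and 1, Gp5, held AGATAA. Over all 32851 promoters of the same length, 64.1% held GGAAG and 9.99% AGATAA. Gp5 held AGATAA at 93 and 77 bases before the start, and Itga2b held GGAAG 4 times, the nearest 25 bases before the start. Gp5 alone of the 7 had bases after the start that were not found in its GENCODE M21 transcripts, so its start is less certain. The letters of the 2 motifs do not overlap each other in these promoters. A match of this kind is a description of the letters, not of a bound site.

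The genes whose variance-stabilised values were most like those of each gene over the 12 libraries also differed. These are correlations over libraries that share group and depth, out of 12929 candidate genes, for the 6 genes with a mean of at least 50 normalized counts. Pf4 was most like Pparg (Pearson r = 0.992), Hpgd (0.984), Gm49101 (0.984), Agmo (0.983) and Fabp4 (0.978). Itga2b was most like Emid1 (0.972), Rab37 (0.97), Snx22 (0.946), Pglyrp2 (0.943) and Muc13 (0.935). Itgb3 was most like Rin3 (0.974), Sh2b2 (0.964), Itprip (0.964) and Cnr2 (0.962). For Gp9 these were Ctse (0.942), Gm48455 (0.919), Pdia2 (0.917), Dclk2 (0.916) and Siah1b (0.906), and for Gp5 Tspan8 (0.963), Mettl27 (0.957), Tmem56 (0.955), Cdr2 (0.95) and Art4 (0.947). Vwf was most like Vegfc (0.946), Cd9 (0.926), the pseudogene Cd9-ps (0.922), which may share reads with Cd9, Klrd1 (0.918) and Gm15466 (0.915). No gene stood in the lists of 2 of the 6.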

How the data were processed

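RNA of 12 sorted samples was sequenced in pairs after amplification of cDNA from small cell numbers, without molecular identifiers. After trimming, error correction and removal of ribosomal RNA, the authors aligned the reads to GRCm39 with segemehl and deposited counts of unambiguous read pairs per Ensembl gene from featureCounts; whether strand was used is not stated. Genes that overlap another gene may therefore lose counts, as the handling of read pairs that fall in more than a single gene is not stated. The authors also deposited TPM, scaled for length and library, and variance-stabilised values on a log2-like scale from DESeq2.

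From these files, 1 DESeq2 fit (version 1.42.0, R 4.3.3) covered the counts of all 12 libraries with the group as factor (Wald test, Benjamini-Hochberg adjusted p under 0.05 over all genes tested, unshrunken log2 fold changes), and levels between genes were compared in TPM. A group at 0 was given a floor of 3 counts. The 9 genes and the other lists were chosen with earlier results of these data known. Named from other lists were up to 3 called genes per list and contrast with the lowest adjusted p; genes given beyond these, such as Gata1, Gata2, Fli1, Runx1, Gp6 and Tubb1, were chosen after their values were seen. Some genes that these rules name are not reported here. Symbols, GC content and gene overlaps came from GENCODE M21 (GRCm38) and promoters from RefSeq. Lists of macrophage identity, monocyte identity, lymphoid and endothelial genes (9, 7, 10 and 10 with an adjusted p) had 0, 2, 1 and 1 genes lower in eYFP+ macrophages by DESeq2 and 0, 1, 1 and 1 by edgeR, beside 1.88% and 0.328% of all genes, and none higher.

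Alternatives were edgeR 4.0.16 (quasi-likelihood), other size factors, a filter requiring 10 counts in 3 libraries, DESeq2 without its independent filtering or its Cook cutoff, the replicate number as a block, limma 3.58.1 on log2(TPM + 1) or log2(TPM + 0.1), a GC correction, a 2-fold minimum, 6 libraries per contrast, each library left out and, chosen after seeing the data, 2 libraries left out. The DESeq2 and edgeR fits were tested on simulated counts.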

Additional observations from a re-analysis of the deposited data

How the results depend on the processing

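Among the recomputed fold changes, 992 kept their direction and side of the threshold, 34 lost a call, 9 gained one and 4 changed sign. The 4 were small: Gp1ba in eYFP+ minus eYFP- macrophages was 0.01 with limma on log2(TPM + 0.1) and 0.24 without eYFP- replicate 2, and Itgb3 in Ly6Chi minus Ly6Clo monocytes was -0.04 without Ly6Clo replicate 2, alone or with eYFP+ replicate 1. None of the 4 was called in either direction. Over all single libraries left out, Gp1ba ranged from -0.83 to 0.24 and Itgb3 from -0.04 to 1.14.

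Replicate numbers come from the titles, which do not say that equal numbers share a mouse. The numbers in the sample names run in consecutive sets, each with a library of every group, which does not settle it either. Same-numbered macrophage libraries deviated together over the 2000 highest genes (r = 0.443, 0.282 and 0.121), but replicate 3 was at 0.072 over 13130 genes. The monocyte pairs were at 0.283, 0.054 and -0.00904 over the 2000 highest genes. The numbers were therefore not taken to pair the samples in the main fit, although shared mice were not excluded. Fits with the replicate number as a block are among the alternatives.

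Between the macrophages the number of genes called was 1 (Itga2b). It was 0 with edgeR, with or without a replicate block, and with limma on log2(TPM + 0.1). It was 2 with limma on log2(TPM + 1) and in the fit of 6 libraries, which added Gp5. Leaving out a library gave 1 to 2, with 227 to 865 called over all genes. Between the monocytes it was 3 and ranged from 2 to 4, while 1860 of all genes were called, with a range of 537 to 2697. Between macrophages and monocytes it was 7, 4 with limma on log2(TPM + 0.1), where Gp1ba, Gp9 and Vwf were lost, and 5 with edgeR and the replicate block, where Gp1ba (adjusted p = 0.0524) and Gp9 (0.0829) were lost. With the replicate block in DESeq2 the macrophage call was kept, at 1 gene. Over all genes, edgeR called 64 between the macrophages (24 with the block), DESeq2 439, DESeq2 with the block 1182 and the fit of 6 libraries 686. Limma called 329 on log2(TPM + 1) and 188 on log2(TPM + 0.1). Between macrophages and monocytes, DESeq2 called 7915 of all genes, limma on log2(TPM + 0.1) 7202 and edgeR with the block 6012. The causes of these changes were not tested. Counts of at most 73 per library in Ppbp, 31 in Gp1ba and 2 in Gp1bb limit what these 3 genes can show at this depth.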
